A study of Drosophila melanogaster and Drosophila simulans and Drosophila yakuba with 72 samples.

Results

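The probes described here are 33 oligonucleotides on a Drosophila microRNA (miRNA) array that carry custom candidate names in place of the usual miRNA names. They were chosen by name, as the probes whose names hold -wu-mir-, sdylib-seq or t454m18-seq. A total of 41 probes had such names. The 2 arms of one further hairpin were left out, as were 6 probes whose target had 4 G in a row or 2 runs of 3 G, which left 33 of the 1339 probes on the array that were not against 2S rRNA. The 33 probes target arms of 29 candidate hairpins, and for 4 hairpins both arms are among them.

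A miRNA is cut from a hairpin-shaped precursor, whose strands give a 5p product (from the 5′ side of the hairpin) and a 3p product (from the 3′ side). Often one arm accumulates and the other is degraded, although both can persist. The bases near the 5′ end of the mature miRNA, called the seed, pair with target messenger RNAs. At the onset of metamorphosis in flies a pulse of the steroid hormone ecdysone starts the formation of the puparium, and miRNAs such as let-7 come on around that time.

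The array compared 2 stages in whole animals raised at 25 °C. The later one carries the label PF, taken to mean puparium formation. The other is labelled >=18BPF, with no unit for the 18, and is named the earlier stage below. Males came from a D. simulans stock (14021-0251.167), a D. yakuba stock (14021-0261.00) and 4 D. melanogaster strains (Zimbabwe-109, Samarkand, Canton-S and Oregon-R), and females from D. simulans, Zimbabwe-109 and Oregon-R. This made 18 groups of 4 samples, 72 in all, each a pool of 60 to 80 animals per the labels' protocols. The 2 stages of one strain, sex and replicate shared one of 36 arrays in opposite dyes. The labels carry no transgene, mutation or treatment, each species other than D. melanogaster is 1 stock, and D. yakuba has no females here. Because whole animals were pooled, fewer cells of a type and less RNA per cell cannot be told apart.

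The array's let-7 probe rose at PF in all 9 sets of strain and sex, by 4.70 ± 0.12 on the log2 scale in D. melanogaster males (SE; limma, adjusted p = 1.336e-40), which served as the check of the stage labels. Of the marker miRNAs, miR-1 of muscle was detected in 72 of 72 samples, miR-124 of the nervous system in 13, and bantam, which is broadly expressed, in 27. A number in the file names was taken as the slide, which the labels do not state. On that reading the 36 arrays lay on 7 slides, 5 with males and 2 with females. One sample stands apart: D. simulans males of replicate 3 at the earlier stage had 14 of the 33 candidate probes and 244 of the 1306 other probes above background, against 4 candidates and 131 to 164 other probes in the other 3 samples of that group. Counts of candidates detected in at least 1 sample are given without its array too, and calls lost without that array are named. Other values include it. The 4 stage changes called in D. simulans males kept their call without it.

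A single target among the candidates matched an annotated D. melanogaster miRNA whose gene could be placed on a chromosome, and it is shown because its duplicate probe gives a check on the measurement. The target of dme-wu-mir-2140-3p is, in all 22 bases, that of the annotated probe dme-miR-1003, the product of mir-1003 on chromosome 3R. MiR-1003 is a mirtron, a miRNA whose hairpin is a spliced-out intron. The mature sequence follows, 5′ to 3′, with the seed (bases 2 to 8) in capitals.
dme-wu-mir-2140-3p: uCUCACAUuuacauauucacag
The annotated miRNA of the same seed on the array besides miR-1003 is dme-miR-1004. For 4 more candidates a near-identical annotated miRNA was on the array. The target of dsi-wu-mir-2600-3p matched dsi-miR-2582b in 22 of 22 bases, and that of dsi-wu-mir-2600-5p contained all 22 bases of dsi-miR-2582b*. The target of dsi-wu-mir-2346-5p lay within dsi-miR-2582a over 23 bases. That of sdylib-seq-3-3p shared 21 of 24 bases with dps-miR-2535 of D. pseudoobscura, with the changes A1U, U12A and U16A, counted from the 5′ end of the candidate's target and written candidate base first. The names of the 33 candidates were not in the RefSeq table used here, and the chromosome of the others is not given.

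The 33 targets were 18 to 26 bases long with a median of 22. Their median GC content was 52.4%, above the 43.5% of the 1306 other probes. The 10 candidates that passed the detection filter described next had a median of 51.2% and the 23 that did not pass had 52.6%, whereas among the other probes the medians were 47.6% for those that passed and 42.9% for those that did not. Of the 33, 6 targets hold a single run of 3 G, the nearest to the limit of the choice, and 3 of these passed the filter. The 6 probes excluded for G runs all passed it, and their stage changes in D. melanogaster males lay between -5.10 for dme-wu-mir-2318-5p and -2.34 for dsi-wu-mir-2986-5p on the log2 scale. Among candidates with 1 such run, dsi-wu-mir-2774-5p changed by -3.08, dsi-wu-mir-2359-3p by -1.79 and sdylib-seq-1-5p by -0.56.

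Detection in a sample required that the median of a probe's 3 spots lie more than 3 SD of the 689 empty spots above their median. It passed the filter, and was tested, when detected in at least 3 of the 4 samples of any group. Of the 33 candidates, 10 passed (30.3%), against 262 of the 1306 other probes (20.1%) and 66 of 186 with a D. melanogaster listing (35.5%). None of the 33 was detected in all 72 samples, whereas 60 of the other probes were. Of the 23 that did not pass, 12 were detected in 0 of 72 samples and 11 in some, 7 of these in 1 sample. The most often detected of the 11, named after its values were seen, was t454m18-seq-8-5p, found in 14 of 72 samples without reaching 3 in any group. Without the array of D. simulans males of replicate 3, 14 candidates were detected in at least 1 sample instead of 21, and 19 in none instead of 12, while the 10 that passed still did.

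Probes named for one species were also detected in others. Of the 15 probes named for D. simulans, 4 passed, all 4 of them in a D. melanogaster group and 3 in a D. simulans group. Of the 7 named for D. melanogaster, 1 passed, and of the 2 named for D. yakuba, 1 passed, in both cases in D. melanogaster and not in the other species. Of the 4 sdylib-seq probes 3 passed, and of the 5 t454m18-seq probes 1 passed. Several candidates came as versions from 2 or 3 species that differ by 1 base. The D. melanogaster version dme-wu-mir-2226-5p was detected in 1 sample and the D. yakuba version dya-wu-mir-2226-5p, which differs by A12G, in 7, and 0 of the 8 D. yakuba samples were among those. Both dme-wu-mir-2095-5p and dsi-wu-mir-2095-5p (U8C, D. melanogaster base first) were detected in 0 samples. The probe dsi-wu-mir-2364-3p was detected in 1 sample and dme-wu-mir-2364-3p (A8U, D. simulans base first) in 0. The probe dsi-wu-mir-3119-5p was detected in 2 samples, dya-wu-mir-3119-5p (G6A) in 1 and dme-wu-mir-3119-5p (G6C) in 0, with the D. simulans base first. Positions count from the 5′ end of the target.

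By species, 5 candidates passed in D. simulans (15.2% of the 33), 3 in D. yakuba (9.09%) and 10 in D. melanogaster (30.3%). For the other probes the shares were 15.1%, 16.3% and 18.99% in the same order. The 3 of D. yakuba, dsi-wu-mir-2774-5p and both arms of dsi-wu-mir-2359, passed in every species. D. simulans added t454m18-seq-6-5p and sdylib-seq-3-3p. The number of groups differs between species, with 4 groups in D. simulans, 2 in D. yakuba and 12 in D. melanogaster, so these counts are not at equal effort. In D. simulans, 17 candidates were detected in at least 1 of 16 samples, but 7 without the array of males of replicate 3.

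Each sample of a group is given next as its number of candidates detected of the 33, PF first. Oregon-R males had 3, 2, 2 and 3 at PF and 5, 6, 4 and 6 at the earlier stage. Oregon-R females had 6, 4, 5 and 4 at PF and 9, 12, 8 and 8 at the earlier stage. In both sets every PF sample lay at or below the lowest earlier sample.
Zimbabwe-109 males had 7, 4, 3 and 7 at PF and 7, 7, 4 and 7 at the earlier stage, and females had 4, 5, 6 and 3 at PF and 7, 7, 9 and 3 earlier, so the stages overlapped in both. Canton-S males had 4, 7, 5 and 4 at PF and 5, 5, 5 and 4 earlier. Samarkand males had 6, 5, 6 and 3 at PF and 5, 4, 2 and 2 earlier, with more candidates at PF on 4 of 4 arrays, as was also so for the other probes (195, 177, 171 and 140 at PF, against 153, 137, 101 and 85 earlier). These are counts per sample without a test.
D. simulans males had 2, 3, 6 and 3 at PF and 4, 4, 14 and 4 earlier, and D. simulans females had 2, 2, 4 and 1 at PF and 5, 6, 5 and 4 earlier. D. yakuba males had 3, 3, 3 and 3 at PF and 3, 4, 3 and 3 earlier, the narrowest range of any set.

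Over all 36 arrays, fewer candidates were detected at PF than at the earlier stage on 23, the same number on 8 and more on 5. Among the other probes the direction was the opposite, with more at PF on 22 arrays, fewer on 12 and the same on 2. At PF 6 candidates passed in some group and at the earlier stage 9 did, against 241 and 226 of the other probes. In males 7 candidates passed and in females 9, from 48 and 24 samples, against 232 and 244 of the other probes.

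The stage change was tested as PF minus the earlier stage on normalized log2 intensities, in one fit over all 272 probes that passed (limma, with the array as a block and the p-values adjusted by Benjamini-Hochberg over all 272). In D. melanogaster males, 8 of the 10 candidates passed an adjusted p of 0.05, 1 higher at PF and 7 lower, where 66.5% of all tested probes passed, 45.2% higher and 21.3% lower. In D. melanogaster females all 10 passed, 2 higher and 8 lower, where 75% of tested probes did, 47.4% higher and 27.6% lower. In D. simulans males 4 passed, all lower, against 44.9% of tested probes (12.1% lower), and in D. simulans females 5, all lower, against 38.6% (14.3% lower). In D. yakuba males 2 passed, both lower, against 47.1% (16.5% lower). The median change of the 10 candidates was -0.52 in D. melanogaster males and -0.61 in females, where the medians over all tested probes were 0.12 and 0.17. Each candidate had passed the filter through the groups in which it was high, so these counts describe the 10 and do not extend to the other 23.

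Of the candidates, dsi-wu-mir-2774-5p was the most widely detected, in 71 of 72 samples, and the brightest, with a highest raw intensity of 11230. Its log2 intensities at PF in D. melanogaster males had a lowest value of 7.11, a median of 8.84 and a highest of 10.28, against 8.92, 12.11 and 13.82 at the earlier stage. In D. melanogaster females they were 6.11, 7.76 and 8.98 at PF, against 9.47, 10.48 and 12.30 at the earlier stage, and the stages did not overlap. For scale, many values of undetected probes lay near 6 on this scale, but that is no fixed limit. In Samarkand males at the earlier stage sdylib-seq-1-3p had a lowest value of 7.06 and a median of 7.32, with 1 of 4 samples detected. In Zimbabwe-109 females at PF dsi-wu-mir-2774-5p was detected in 4 of 4 samples, down to 6.11.
In D. simulans males dsi-wu-mir-2774-5p had 8.77, 8.63, 8.58 and 9.18 at PF and 11.77, 12.91, 10.49 and 12.57 earlier. In D. simulans females it had 9.47, 9.38, 9.09 and 8.78 at PF and 11.02, 10.91, 11.58 and 11.64 earlier. D. yakuba males had 8.66, 8.36, 8.03 and 8.59 at PF and 10.81, 11.03, 10.61 and 11.49 earlier. In these 3 sets every PF sample was below every earlier sample.
The fall of dsi-wu-mir-2774-5p was 3.08 ± 0.19 on the log2 scale in D. melanogaster males, 8.47-fold lower at PF (SE; limma, adjusted p = 8.564e-22, lower on 16 of 16 arrays). It was -3.07 ± 0.27 in D. melanogaster females (8 of 8 arrays), -3.14 ± 0.37 in D. simulans males, -2.11 ± 0.37 in D. simulans females and -2.58 ± 0.37 in D. yakuba males (4 of 4 arrays each). The differences of these changes between species and between sexes did not pass the test, the adjusted p (limma) being 0.97 for D. simulans, 0.41 for D. yakuba, 0.27 for the sexes of D. melanogaster and 0.38 for those of D. simulans. Within D. melanogaster the stage change ran from -1.62 ± 0.37 in Oregon-R males to -4.32 ± 0.37 in Zimbabwe-109 females.

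The candidate t454m18-seq-6-5p was detected in 25 of 72 samples, all of the earlier stage, and in 0 at PF. Oregon-R females had the highest earlier values, with 4.41, 4.57, 5.87 and 5.39 at PF and 10.36, 9.92, 12.08 and 9.08 at the earlier stage. Oregon-R males had 6.44, 6.04, 6.82 and 6.22 at PF and 8.91, 9.50, 10.16 and 9.59 earlier. The PF values of Oregon-R females lie below the level of undetected probes elsewhere, so folds for t454m18-seq-6-5p are given as lower bounds, with each undetected PF sample set no lower than the dimmest detected probe of its channel.
Zimbabwe-109 males had 6.15, 6.13, 6.73 and 5.89 at PF and 8.21, 7.73, 8.39 and 6.82 earlier, and Zimbabwe-109 females 5.96, 5.57, 5.54 and 5.17 at PF and 9.03, 8.33, 7.33 and 7.18 earlier. Samarkand males had 6.12, 5.96, 6.14 and 6.06 at PF and 7.70, 6.81, 6.60 and 6.08 earlier, with 2 of 4 earlier samples detected. Canton-S males, at 6.02, 6.01, 5.98 and 6.01 at PF and 5.96, 6.04, 6.03 and 6.07 earlier, were not detected at either stage. Among males of one species t454m18-seq-6-5p thus ran from undetected in Canton-S to the level of Oregon-R.
D. simulans males had 6.42, 5.91, 6.54 and 5.96 at PF and 7.98, 7.85, 8.07 and 7.63 earlier, and D. simulans females 6.19, 5.98, 6.00 and 6.08 at PF and 6.90, 7.26, 7.46 and 7.09 earlier. D. yakuba males had 0 of 8 samples detected and values between 5.84 and 6.17.
Because t454m18-seq-6-5p passed the filter through groups of the earlier stage alone, its falls at PF are a description. At PF t454m18-seq-6-5p was at least 30.1-fold lower in Oregon-R females and at least 6.95-fold lower in Oregon-R males. In Zimbabwe-109 it was at least 3.87-fold lower in females and at least 2.33-fold lower in males. It was at least 2.50-fold lower in D. simulans males and at least 1.55-fold lower in D. simulans females. Over D. melanogaster as a whole it was at least 10.8-fold lower in females and at least 1.93-fold lower in males. The 4 D. melanogaster strains differed among males at the earlier stage (limma F test, adjusted p = 1.979e-11) and not at PF (adjusted p = 0.86), where 0 of 16 samples were detected.

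The hairpin sdylib-seq-1 gave signal from both arms, which passed the filter in groups of D. melanogaster and in 0 groups of the other species. Its 3p arm was detected in 41 samples, all 41 of D. melanogaster, and its 5p arm in 36, of which 1 was the D. simulans male sample that stands apart. For sdylib-seq-1-3p the D. melanogaster males had a lowest value of 7.98, a median of 9.23 and a highest of 9.80 at PF, against 6.91, 7.53 and 8.46 at the earlier stage. D. melanogaster females had 6.89, 8.58 and 9.71 at PF, against 6.54, 7.87 and 8.90 earlier, and the stages overlapped.
The 3p arm was the 1 candidate that rose at PF in D. melanogaster males, by 1.63 ± 0.11 on the log2 scale or 3.10-fold (limma, adjusted p = 5.727e-20, higher on 16 of 16 arrays). In females sdylib-seq-1-3p rose by 0.67 ± 0.16 (adjusted p = 0.0001173, 7 of 8 arrays), with 1.09 ± 0.22 in Oregon-R and 0.26 ± 0.22 in Zimbabwe-109, of which the Zimbabwe-109 value did not pass (adjusted p = 0.3055). On the deposited processed values the female change was 0.32 (adjusted p = 0.8181). Among male strains its change ran from 1.18 ± 0.22 in Oregon-R to 2.20 ± 0.22 in Samarkand.
For sdylib-seq-1-5p the D. melanogaster males had 5.98, 6.94 and 7.44 as lowest, median and highest at PF, against 6.16, 7.40 and 9.17 earlier, and females 5.27, 6.41 and 7.40 at PF, against 6.74, 7.32 and 8.65 earlier. The 5p arm fell by 0.56 ± 0.10 in males (limma, adjusted p = 2.706e-06, 13 of 16 arrays) and changed by -1.09 ± 0.14 in females (adjusted p = 1.833e-09, 8 of 8 arrays). With arrays centred on the median instead of loess the male value was -0.28 (adjusted p = 0.05906) and no longer passed. On the deposited processed values it did not pass either, at -1.28 with an adjusted p of 0.08085.

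Both arms of dsi-wu-mir-2359 were detected in all 3 species, the 5p arm in 46 samples and the 3p arm in 50. For dsi-wu-mir-2359-3p the PF values of D. melanogaster males had a lowest of 5.73, a median of 7.43 and a highest of 10.44, against 5.97, 9.61 and 12.54 at the earlier stage. D. melanogaster females had 4.92, 5.52 and 6.03 at PF, none of the 8 detected, against 7.44, 8.30 and 8.94 earlier, all 8 detected. The stages overlapped in males and not in females.
D. simulans males had 6.61, 7.18, 7.54 and 7.80 for dsi-wu-mir-2359-3p at PF and 9.13, 9.01, 9.83 and 9.94 earlier, and D. simulans females 6.24, 6.03, 5.95 and 6.16 at PF, undetected, and 8.54, 8.73, 8.49 and 8.03 earlier. D. yakuba males had 7.44, 7.11, 7.57 and 7.68 at PF and 8.71, 8.66, 8.03 and 8.29 earlier. Every PF sample lay below every earlier sample of its set.
The 3p arm fell in D. melanogaster males, with a change of -1.79 ± 0.15 on the log2 scale (limma, adjusted p = 2.672e-16, 15 of 16 arrays), and in females it was at least 5.59-fold lower at PF (adjusted p = 1.057e-17, 8 of 8 arrays). It changed by -2.19 ± 0.30 in D. simulans males and by -0.97 ± 0.30 in D. yakuba males and was at least 3.76-fold lower in D. simulans females (adjusted p = 7.834e-09, 0.005199 and 1.771e-09 in that order). The D. yakuba call for dsi-wu-mir-2359-3p was lost without replicate 2 (-0.80, adjusted p = 0.0598), which left 1 candidate called there instead of 2.

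The 5p arm of that hairpin changed less and not in one direction. For dsi-wu-mir-2359-5p, Zimbabwe-109 males had 7.62, 8.24, 8.59 and 8.07 at PF, all detected, against 6.92, 7.06, 7.50 and 7.29 at the earlier stage, and every PF sample was the higher. Canton-S males had 7.04, 6.37, 7.58 and 7.23 at PF and 7.97, 7.89, 8.51 and 7.96 earlier, Samarkand males 6.93, 7.41, 7.15 and 6.54 at PF and 8.53, 8.83, 7.75 and 7.24 earlier, and Oregon-R males 6.34, 5.50, 6.14 and 5.89 at PF and 7.04, 6.34, 6.92 and 6.50 earlier. In those 3 strains PF was lower on 4 of 4 arrays each.
The change of dsi-wu-mir-2359-5p was 0.94 ± 0.18 in Zimbabwe-109 males (limma, adjusted p = 1.104e-05), against -1.03 ± 0.18 in Canton-S and -1.08 ± 0.18 in Samarkand males. Zimbabwe-109 males were detected in 2 of 4 earlier samples, and Samarkand males in 2 of 4 earlier and 3 of 4 at PF. Oregon-R males were detected in 3 of 4 earlier samples and 0 of 4 at PF, so no size is given for them. Over all D. melanogaster males the change was -0.48 ± 0.09 (adjusted p = 5.58e-06), but -0.16 when arrays were centred on the median (adjusted p = 0.2631). In D. simulans males the change of dsi-wu-mir-2359-5p was -0.66 ± 0.18 (adjusted p = 0.001708), a call lost with median centring (-0.16, adjusted p = 0.6536), plain background subtraction (adjusted p = 0.06027) and the deposited processed values (adjusted p = 0.333). In D. yakuba males it was 0.17 ± 0.18 and did not pass (adjusted p = 0.4892).

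The 4 remaining candidates each passed the filter in 1 or 2 groups. The group of dya-wu-mir-2226-5p was Zimbabwe-109 males at the earlier stage. Those males had 6.14, 6.10, 6.30 and 5.61 for dya-wu-mir-2226-5p at PF and 7.24, 11.22, 6.95 and 7.96 earlier, one sample being far above the rest. The PF minus earlier log2 ratios of these 4 arrays were -1.10, -5.12, -0.65 and -2.36. Since dya-wu-mir-2226-5p passed the filter through that group alone, these are a description, with no test.
For dme-wu-mir-2140-3p, Zimbabwe-109 females had 6.21, 6.38, 8.46 and 6.97 at PF and 6.17, 6.19, 6.25 and 6.47 earlier, and Oregon-R females 6.998, 6.98, 6.17 and 6.24 at PF and 6.41, 6.22, 5.95 and 6.12 earlier. Replicates of one group differed widely, but dme-wu-mir-2140-3p was higher at PF on 8 of 8 female arrays, by 0.58 ± 0.11 (SE), and by 0.34 without Zimbabwe-109 female replicate 3. It passed the filter through Zimbabwe-109 females at PF alone, so this is a description. The identical target printed as dme-miR-1003 had 6.14, 6.26, 7.44 and 6.99 at PF in Zimbabwe-109 females and 6.70, 6.62, 6.00 and 6.12 in Oregon-R females, the same samples being the high ones. It was detected in 8 samples, all 8 of them among the 11 of dme-wu-mir-2140-3p.
The other 2 were near background. For sdylib-seq-3-3p, detected in 19 samples, the changes that passed were small. They were -0.16 ± 0.05 in D. melanogaster males (limma, adjusted p = 0.003737), -0.17 ± 0.07 in females and -0.33 ± 0.10 in D. simulans females. The groups through which sdylib-seq-3-3p passed the filter were Oregon-R females and D. simulans females, both at the earlier stage. These are on the earlier side of the 2 female changes, so those 2 are a description. Of 7 other processing settings, 3 ended the male call of sdylib-seq-3-3p, 5 the D. melanogaster female call and 4 the D. simulans female call. The call of sdylib-seq-3-3p in D. melanogaster females was lost without Oregon-R female replicate 1 (-0.15, adjusted p = 0.05583) or Zimbabwe-109 female replicate 1 (-0.15, adjusted p = 0.0685), and that in D. simulans females without replicate 1 (-0.28, adjusted p = 0.05342). The probe dps-miR-2535, 3 bases different, was detected in 0 samples.
For dsi-wu-mir-2835-3p the Oregon-R females had 6.13, 5.97, 6.05 and 6.02 at PF and 6.13, 6.19, 8.11 and 6.00 at the earlier stage, so that replicate 3 carried the difference. The group through which it passed the filter was that of the earlier Oregon-R females. That group is on the earlier side of the female change of dsi-wu-mir-2835-3p, so this change is a description. It was -0.32 ± 0.12, and -0.06 without Oregon-R female replicate 3. For dya-wu-mir-2226-5p the female change was -0.58 ± 0.19 (limma, adjusted p = 0.005644), and -0.40 without Zimbabwe-109 female replicate 4 (adjusted p = 0.07327).

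The 4 hairpins with both arms on the array differed in which arm was seen. For sdylib-seq-1 and dsi-wu-mir-2359 both arms passed, for dsi-wu-mir-2835 the 3p arm passed while the 5p arm was detected in 0 of 72 samples, and for dsi-wu-mir-2600 the arms were detected in 2 (5p) and 1 (3p) of 72. In D. melanogaster both arms of dsi-wu-mir-2359 were detected together in 23 of 48 samples, the 5p arm alone in 4, the 3p arm alone in 8 and neither in 13. In D. simulans both were detected in 10 of 16, and in D. yakuba in 8 of 8. In D. melanogaster females at PF both arms of dsi-wu-mir-2359 were undetected in 8 of 8 samples, against 0 of 8 at the earlier stage.
The levels of the arms were not compared, since each probe binds with its own strength, but their stage changes were, on each array. For sdylib-seq-1 the 5p change minus the 3p change averaged -2.19 ± 0.24 over 16 D. melanogaster male arrays (SE), the 3p arm being the higher on 16 of 16 (two-sided exact sign-flip permutation test, p = 3.052e-05, the smallest it can give; adjusted p = 0.0001221 over the 4 differences tested). Over 8 female arrays it averaged -1.76 ± 0.29, in the same direction on 8 of 8 (exact p = 0.007812, the smallest it can give; adjusted p = 0.007812). For dsi-wu-mir-2359 the difference was 1.31 ± 0.38 in males, with the 5p arm the higher on 13 of 16 arrays (exact p = 0.001617; adjusted p = 0.003234). The 3 male arrays in the other direction were Oregon-R replicates 2, 3 and 5. Both arms were undetected at PF in 4 of 4 Oregon-R males, whose arrays are included. In Zimbabwe-109 males the 5p change was 0.71 to 1.18 over 4 arrays, and the 3p change -3.54 to -0.29. The male strains were not tested apart. The female difference of dsi-wu-mir-2359 is not given, since both arms were undetected at PF there. The male result for dsi-wu-mir-2359 did not pass with plain background subtraction, at 1.32 with an adjusted exact p of 0.08261, or on the deposited processed values, at 1.48 with an adjusted exact p of 0.05072. For sdylib-seq-1 the mean 3p change in males was 1.63 and the mean 5p change -0.56, in opposite directions. For dsi-wu-mir-2359 both means were below 0, at -1.79 for the 3p arm and -0.48 for the 5p arm.

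Between species, males were compared at each stage. In D. simulans against D. melanogaster, 4 of the 10 candidates passed at the earlier stage, 2 higher and 2 lower, where 6.99% of tested probes passed (3.68% higher, 3.31% lower), and 3 at PF, 1 higher and 2 lower, where 9.93% did (6.99% higher, 2.94% lower). In D. yakuba against D. melanogaster, 5 passed at the earlier stage, all lower, where 26.8% of tested probes passed (8.09% lower), and 2 at PF, both lower, where 36% did (11.8% lower). The D. melanogaster samples are the same in both comparisons. Both arms of sdylib-seq-1 passed the filter through D. melanogaster groups alone, so their place in these counts, and their differences below, are a description.
The 3p arm of sdylib-seq-1 had the lower values in both other species. At PF sdylib-seq-1-3p had 5.93, 6.12, 5.86 and 5.85 in D. simulans males and 5.85, 5.84, 5.80 and 5.96 in D. yakuba males, 0 of 4 detected in each, against the 7.98 to 9.80 of D. melanogaster males. At the earlier stage it had 5.91, 6.00, 5.87 and 5.89 in D. simulans males and 5.85, 5.86, 5.76 and 5.88 in D. yakuba males, against 6.91 to 8.46 in D. melanogaster males, so the species did not overlap at either stage.
For sdylib-seq-1-3p the PF level in D. simulans males lay at least 6.57-fold lower, and the earlier one at least 1.94-fold lower. In D. yakuba males the PF level was at least 8.91-fold lower, and the earlier one at least 1.86-fold lower. Within the slides that hold both species, the PF difference of sdylib-seq-1-3p for D. simulans was -3.22 with Canton-S and -3.28 with Oregon-R, and for D. yakuba -3.83 with Samarkand. For sdylib-seq-1-5p the difference at the earlier stage was -1.15 ± 0.23 in D. simulans, with 1 of 4 samples detected (limma, adjusted p = 0.0001317). It was at least 1.68-fold lower in D. yakuba at that stage and at least 1.72-fold lower at PF, and at least 1.24-fold lower in D. simulans at PF (limma, adjusted p between 1.807e-06 and 0.0239). The D. simulans call of sdylib-seq-1-5p at PF was lost without D. simulans male replicate 1 (adjusted p = 0.1163), 2 (adjusted p = 0.0515) or 4 (adjusted p = 0.1169).
The stage change of sdylib-seq-1-3p differed between species too, by -1.61 ± 0.25 for D. simulans and for D. yakuba against D. melanogaster males (limma interaction). These tests set D. melanogaster, through which the probe passed the filter, against species with no signal above background, so this is a description. The share of tested probes past this test was 1.1% for D. simulans, where 1 candidate passed, and 20.6% for D. yakuba, where 3 did. On the deposited processed values the D. simulans difference was -0.07 (adjusted p = 0.9856), and the D. yakuba one was 2.22 (adjusted p = 0.5661), of opposite sign.

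The 2 candidates higher in D. simulans males were an arm of dsi-wu-mir-2359 and sdylib-seq-3-3p. For dsi-wu-mir-2359-5p the earlier samples had 8.32, 7.58, 8.98 and 8.21 in D. simulans, against a lowest of 6.34, a median of 7.40 and a highest of 8.83 in D. melanogaster, a difference of 0.75 ± 0.20 (limma, adjusted p = 0.007585). Without D. simulans male replicate 3 it was 0.53 (adjusted p = 0.2034) and did not pass. Within slides dsi-wu-mir-2359-5p differed by 1.25 against Oregon-R and 0.51 against Canton-S.
The other, sdylib-seq-3-3p, had 6.92, 6.70, 6.82 and 6.62 in D. simulans males at the earlier stage, 1 of 4 detected, and differed from D. melanogaster by 0.47 ± 0.11 (limma, adjusted p = 0.001108) and by 0.44 ± 0.11 at PF (adjusted p = 0.002744). In D. yakuba males sdylib-seq-3-3p passed as lower at the earlier stage (adjusted p = 0.001242), with no fold given. Few of the earlier samples were above background, 1 of 4 in D. simulans, 0 of 4 in D. yakuba and 1 of 16 in D. melanogaster.
For t454m18-seq-6-5p the species comparison depended on the strain. D. yakuba males were at least 1.86-fold lower than D. melanogaster males at the earlier stage, with 0 of 8 D. yakuba samples above background. The stage change was called by the interaction test. Since t454m18-seq-6-5p passed the filter in no D. yakuba group, both are a description. The D. simulans difference was 0.34 ± 0.28 and did not pass (limma, adjusted p = 0.5614). Within slides it was 1.82 when set beside Canton-S and -1.62 when set beside Oregon-R. The D. yakuba difference of dsi-wu-mir-2359-3p at the earlier stage, -0.86 ± 0.33 (adjusted p = 0.04587), did not hold when any of 11 of 20 arrays was left out in turn, with values from -0.97 to -0.74 over all 20. The 11 were Oregon-R replicates 4 and 5, Canton-S replicates 1, 2 and 3, Samarkand replicates 3 and 4, Zimbabwe-109 replicate 4 and D. yakuba replicates 2, 3 and 4. The stage change of dsi-wu-mir-2359-5p also differed in D. yakuba, by 0.64 ± 0.20 (limma, adjusted p = 0.01682), and the call was lost without D. yakuba replicate 2 (0.58, adjusted p = 0.08527), 3 (0.59, adjusted p = 0.06024) or 4 (0.52, adjusted p = 0.144).

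Among the 4 D. melanogaster strains, males differed in 6 of 10 candidates at the earlier stage, where 32.4% of tested probes did, and in 2 at PF, where 28.3% did (limma F test over the 4 strains). The 6 were t454m18-seq-6-5p, dya-wu-mir-2226-5p, dsi-wu-mir-2774-5p, sdylib-seq-1-5p and both arms of dsi-wu-mir-2359, and the 2 at PF were these arms. Of the 6, dya-wu-mir-2226-5p passed the filter through Zimbabwe-109 males at the earlier stage alone. That is 1 of the 4 groups compared, so its place in the count is a description. For dsi-wu-mir-2359-3p at the earlier stage, Zimbabwe-109 males had 10.92, 11.17, 10.72 and 12.54, Samarkand males 9.80, 10.33, 10.68 and 10.54, Canton-S males 9.07, 9.35, 9.42 and 8.44 and Oregon-R males 5.97, 6.07, 6.98 and 6.40. All 4 strains kept that order at this stage without overlap between neighbours, and 1 of 4 Oregon-R samples was detected (adjusted p = 3.153e-14). At PF dsi-wu-mir-2359-3p had 8.23, 7.63, 10.44 and 9.64 in Zimbabwe-109, 7.52, 8.78, 8.87 and 8.58 in Samarkand, 6.35, 6.08, 7.34 and 6.57 in Canton-S and 5.99, 5.73, 6.13 and 5.90 in Oregon-R, where Zimbabwe-109 overlapped Samarkand and Canton-S overlapped Oregon-R (adjusted p = 1.13e-08). The strains were spread over several slides, 1 of which held both Zimbabwe-109 and Samarkand males, and the test has no term for the slide.

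The sexes were compared over Zimbabwe-109 and Oregon-R together for D. melanogaster, and in D. simulans. No slide, as read from the file names, held both sexes, and the file names of the sexes also differ in a part of unstated meaning. Sex therefore cannot be told apart from the slide or from whatever that part stands for. In D. melanogaster 1 candidate passed at the earlier stage, where 35.7% of tested probes did (17.3% higher), and 7 at PF, 6 higher in males and 1 lower, where 53.3% did (22.8% higher, 30.5% lower). The arms of dsi-wu-mir-2359 differed most.
For dsi-wu-mir-2359-3p the males of Zimbabwe-109 had the PF values 8.23, 7.63, 10.44 and 9.64, against 6.00, 5.62, 5.42 and 4.92 in females of that strain. The males of Oregon-R had 5.99, 5.73, 6.13 and 5.90, against 4.97, 5.02, 6.03 and 5.72 in females. The difference was at least 3.28-fold, higher in males (limma, adjusted p = 1.558e-07). As the values show, Zimbabwe-109 males were detected in 4 of 4 samples and Oregon-R males in 0 of 4.
For dsi-wu-mir-2359-5p the male excess at PF, averaged over the 2 strains, was at least 2.10-fold (adjusted p = 6.726e-07, limma). Zimbabwe-109 males had a mean of 8.13, 4 of 4 detected, against 5.97 in females, 0 of 4 detected. Oregon-R males had 5.97 and females 5.86, with 0 of 4 detected in each, so no excess is read in that strain. In D. simulans males dsi-wu-mir-2359-5p had 7.13, 7.72, 7.90 and 7.67 at PF, all detected, against 6.20, 6.04, 6.11 and 6.08 in females, none detected. The D. simulans male excess was at least 2.10-fold at PF (adjusted p = 6.866e-06), and 1.38 ± 0.25 on the log2 scale at the earlier stage (adjusted p = 5.507e-05). In D. simulans 1 candidate passed at the earlier stage, where 11.8% of tested probes did (4.78% higher), and 2 at PF, where 12.9% did (6.62% higher). The second at PF, dsi-wu-mir-2359-3p, was at least 1.68-fold higher in males (adjusted p = 0.04903), and did not pass when any of 7 of the 8 arrays was left out, all but D. simulans male replicate 1.
The candidate dme-wu-mir-2140-3p was the 1 lower in males at PF, with 1 of 8 male and 5 of 8 female samples detected. The difference was -0.70 ± 0.16, and -0.46 without Zimbabwe-109 female replicate 3. Since dme-wu-mir-2140-3p passed the filter through Zimbabwe-109 females at PF alone, a group of this comparison, this is a description. For t454m18-seq-6-5p the call at PF (limma, adjusted p = 0.0009506) lay between groups with 0 of 8 samples detected in each, and no difference is read from it.
The other PF differences of D. melanogaster passed narrowly, dsi-wu-mir-2774-5p at 0.90 ± 0.38, sdylib-seq-1-3p at 0.51 ± 0.22 and sdylib-seq-1-5p at 0.51 ± 0.20 (limma, adjusted p = 0.0381, 0.04676 and 0.03121). Leaving out single arrays ended the call of dsi-wu-mir-2774-5p in 7 of 16 cases (0.68 to 1.21 over the 16), of sdylib-seq-1-3p in 9 (0.35 to 0.68) and of sdylib-seq-1-5p in 7 (0.39 to 0.64). Without Oregon-R male replicate 2, Oregon-R female replicate 1 or Zimbabwe-109 female replicate 3, 4 candidates passed in place of 7. At the earlier stage the 1 candidate was dya-wu-mir-2226-5p, at 0.79 ± 0.27. Without Zimbabwe-109 male replicate 2 it was 0.33 and 0 candidates passed. Since dya-wu-mir-2226-5p passed the filter through Zimbabwe-109 males at the earlier stage alone, a group of this comparison, its difference is a description.
The stage change differed between the sexes of D. melanogaster for 5 candidates, 4 of them higher, where 24.6% of tested probes did (8.82% higher, 15.8% lower). In D. simulans limma called 0 of 10, where 5.15% of tested probes passed (1.84% higher, 3.31% lower), and 0 of 10 had an unadjusted p under 0.05. The stage change of males minus that of females was 0.62 ± 0.22 for sdylib-seq-1-3p (limma interaction, adjusted p = 0.03097) and -0.56 ± 0.16 for dme-wu-mir-2140-3p, or -0.32 without Zimbabwe-109 female replicate 3, which is again a description. The other 3 were t454m18-seq-6-5p and both arms of dsi-wu-mir-2359, undetected at PF in 8 of 8 female samples and, for t454m18-seq-6-5p, in 8 of 8 male samples too, so that no size is given for them. At the earlier stage, where t454m18-seq-6-5p was detected in 8 of 8 male and 7 of 8 female samples, the sexes did not pass the test (-0.50 ± 0.25, adjusted p = 0.1159). The call of sdylib-seq-1-3p was lost without Oregon-R male replicate 4 (0.59, adjusted p = 0.06341), Oregon-R female replicate 4 (0.58, adjusted p = 0.05734) or Zimbabwe-109 male replicate 2 (0.44, adjusted p = 0.1393).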

How the data were processed

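The deposited files give each spot's Cy3 and Cy5 intensity on a linear scale, per the file headers. A further deposited table holds intensity values as the authors processed them, with scale and centring unstated, and served as an alternative. A service company labelled and hybridized the RNA, per the labels' protocols. With limma 3.58.1 (R 4.3.3), intensities were corrected by normexp (offset 50) against the 689 empty spots, normalized by loess within and Aquantile between arrays, and the median of 3 spots was taken as log2. Detection thresholds were 69.1 to 214 (Cy3) and 38.6 to 121 (Cy5). Differences between 18 groups were fitted with dye as a covariate and the array as a random block, with Benjamini-Hochberg adjustment over all 272 tested probes in each comparison. After group and dye, the residuals of the 2 samples sharing an array had correlations of 0.0280 to 0.679, above 0.1 on 32 of 36 arrays, and the fitted correlation was 0.501. The pairing comes from the array itself, per the file headers. All candidates that passed the filter could be named, with up to 6 changes per direction in each comparison. The members and lists were chosen with earlier results of these data known. The 4 samples per group are biological replicates in the submitters' design text. The fit was tested on simulated data. Where a group was undetected, folds are lower bounds, which a fitted log2 value is not. The alternatives were the background correction, the normalization, the filter, the detection limit, the block, the slide, the deposited processed values and leaving out each array. The 8 probes against 2S rRNA were left out. The number of arrays limits the precision.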

Additional observations from a re-analysis of the deposited data

Results flagged for a closer look

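The number of candidates detected in a sample stood apart from the rest of its group in 4 groups. In D. simulans males at the earlier stage 1 sample had 14 of 33. In Canton-S, Zimbabwe-109 and D. yakuba males at the earlier stage the sample apart had 4, beside 5 in the others of Canton-S, 7 in those of Zimbabwe-109 and 3 in those of D. yakuba. In the stage log2 ratio, 1 array stood apart in 6 cases. These were dsi-wu-mir-2835-3p in Oregon-R females (-2.05 in replicate 3, the others -0.22 to 0.02), dya-wu-mir-2226-5p in Oregon-R females (-0.82 in replicate 2, the others -0.24 to -0.15) and in Zimbabwe-109 females (-2.17 in replicate 4, the others -0.54 to -0.26). The others were sdylib-seq-3-3p in D. simulans males (-0.13 in replicate 2, the others -0.22 to -0.21) and in Oregon-R males (-0.81 in replicate 3, the others -0.18 to -0.09), and t454m18-seq-6-5p in Oregon-R males (-2.47 in replicate 2, the others -3.46 to -3.35). These are 10 flags in 108 groups tested, where chance gives about 1 in 20 for values without ties. In the 4 groups flagged on counts the other 3 samples had equal counts, so a gap of any size is flagged. That rate does not hold for those 4.

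The stage change differed between species or sexes by the interaction test of limma in 9 cases. Against D. melanogaster males it differed for sdylib-seq-1-3p in D. simulans males (-1.61, adjusted p = 2.776e-06), and in D. yakuba males for sdylib-seq-1-3p (-1.61, adjusted p = 1.111e-06), t454m18-seq-6-5p (1.33, adjusted p = 0.0004898) and dsi-wu-mir-2359-5p (0.64, adjusted p = 0.01682). Between males and females of D. melanogaster it differed for t454m18-seq-6-5p (1.49), dsi-wu-mir-2359-3p (1.38), dsi-wu-mir-2359-5p (0.75), sdylib-seq-1-3p (0.62) and dme-wu-mir-2140-3p (-0.56). These values include PF samples not above background. At PF t454m18-seq-6-5p was undetected in both sexes, both arms of dsi-wu-mir-2359 were undetected in females, and in D. yakuba t454m18-seq-6-5p and sdylib-seq-1-3p were undetected at both stages, as was sdylib-seq-1-3p in D. simulans.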

How the results depend on the processing

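With the array as a fixed block, the replicate block of the alternatives, 38 of 38 named stage changes kept direction and call, and with no replicate block 54 of 63 named values did, the candidates called for the stage by sex difference in D. melanogaster then being 3 in place of 5. The number of candidates called moved by over 1.5 times in these cases. Median centring in place of loess gave 5 for the stage change in D. melanogaster males and 1 in D. yakuba males. Testing all probes gave 13 in D. melanogaster males, and 3 for the sexes of D. simulans at the earlier stage. Plain background subtraction gave 1 for the stage change in D. yakuba males, 4 for D. yakuba against D. melanogaster at PF, 3 for the sexes of D. simulans at the earlier stage, and for the stage change 5 by species (D. yakuba), 3 by sex in D. melanogaster and 2 by sex in D. simulans. The slide as a fixed block gave 5 for D. simulans and 4 for D. yakuba against D. melanogaster at PF. The deposited processed values gave, for the stage change, 6 in D. melanogaster females and 4 in D. yakuba males, and 1, 1 and 4 for D. simulans at the earlier stage, D. simulans at PF and D. yakuba at PF against D. melanogaster. They gave 1 for the sexes of D. melanogaster at PF, 0 and 1 for those of D. simulans at the earlier stage and PF, 0 for the stage change by species (D. simulans), 0 by sex in D. melanogaster, and 2 for strains at the earlier stage. With them the paired-arm difference of dsi-wu-mir-2359 in D. melanogaster males was 1.48 (adjusted exact p = 0.05072), and with plain subtraction 1.32 (adjusted exact p = 0.08261). With plain subtraction 7 of 8 female arrays had a value for both arms of each hairpin. The cause was not tested.

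On the deposited processed values 8 named values changed sign, none of them past the test: dsi-wu-mir-2359-3p in D. yakuba against D. melanogaster at the earlier stage (0.18), males against females of D. melanogaster for dya-wu-mir-2226-5p at the earlier stage (-0.40) and at PF for t454m18-seq-6-5p (-0.95), dsi-wu-mir-2774-5p (-0.69), sdylib-seq-1-3p (-0.85) and sdylib-seq-1-5p (-0.29), the stage by species value of sdylib-seq-1-3p in D. yakuba (2.22), and the stage by sex value of dsi-wu-mir-2359-5p (-0.0507). Another 23 of 63 named values lost their call there and 32 kept it.

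Leaving out each array in turn gave 9 to 10 candidates passing the filter, 1 to 2 called for the stage change in D. yakuba males, 0 to 3 and 4 to 7 for the sexes of D. melanogaster at the earlier stage and PF, 1 to 2 for those of D. simulans at PF, and 2 to 5 for the stage by species difference of D. yakuba. Of 844 such values of named candidates, 786 kept direction and call and 58 lost the call. Other detection limits gave 8 to 11 candidates passing. The comparison restricted to strains on linked slides, and the counts without D. simulans male replicate 3, were added after seeing the data. The F test of strains with the slide as a fixed block could not be estimated and was not run.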
